A study of Mus musculus with 11 samples.

Results

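The clustered protocadherins of mPFC CRF1+ neurons are described here gene by gene. The genes were chosen by symbol alone, as every mouse gene named Pcdh followed by a, ac, b, ga, gb or gc and a number, a rule that uses no measured value. The rule found 58 genes among the 53465 genes in the count files, 14 in the alpha cluster, 22 in the beta cluster and 22 in the gamma cluster. All 3 clusters lie on the plus strand of chromosome 18 of the GRCm38 assembly, with alpha genes between 36930184 and 37187661, beta genes between 37264938 and 37524479, and gamma genes between 37661793 and 37841873.

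Clustered protocadherins are cadherin-family adhesion proteins of the neuronal surface. Each neuron transcribes its own subset of them, chosen largely at random by promoter, and the resulting surface code lets the branches of a neuron recognise and avoid each other. In the alpha and gamma clusters each gene is a large variable exon that encodes the extracellular domain and is spliced to constant exons shared by the whole cluster, whereas a beta gene consists of a single coding exon and has no shared part. The genes at the ends of the alpha and gamma clusters, Pcdhac1, Pcdhac2, Pcdhgc3, Pcdhgc4 and Pcdhgc5, 5 in all, are called C-type and are known to be expressed more evenly between neurons than the stochastically chosen isoforms. CTCF and cohesin loop the chosen promoters to distant enhancers, and DNA methylation keeps other promoters silent.

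The data were RNA-seq counts from 11 adult male CRF1:GFP mice, in which the CRF1 promoter drives GFP, so that the sorted population is defined by the reporter and not by CRF1 protein. GFP-positive live neurons were sorted by flow cytometry from the medial prefrontal cortex (mPFC), with 1 mouse per library. The 6 naïve mice received pyrazole, an alcohol dehydrogenase inhibitor, and breathed air in the chambers; the 5 withdrawn mice received ethanol and pyrazole, underwent 5 to 6 weeks of chronic intermittent ethanol vapor and were taken 5 to 8 days into abstinence. A library held the pooled sorted neurons of a mouse, so that fewer cells using a protocadherin and less RNA per cell cannot be told apart.

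Libraries held between 7351567 and 22244869 counts in genes and between 15585 and 31830 genes with at least 1 read. Crhr1, which encodes CRF1, averaged 92.7 ± 21.5 CPM (counts scaled to the library total; SD, n = 6) in naïve and 89.3 ± 33.6 CPM (n = 5) in withdrawn mice. Slc17a7, the glutamatergic vesicular transporter, averaged 1435 and 1362 CPM in the same order, and Gad2, a GABA-synthesising enzyme, 39.9 and 57.5 CPM. Of the markers of other cells, the summed level of 10 fibroblast genes ran from 0.0677 to 77.7 CPM in naïve and from 20.7 to 1353 CPM in withdrawn mice, with a positive fold change in all 8 tested genes of that list, 3 called by DESeq2 (Col1a1, Dcn and Ogn), and a negative one by DESeq2 in the 2 genes under the low-count filter (Lum and Igf2). The summed astrocyte list had a median of 33.1 CPM in naïve and 219 CPM in withdrawn mice, but only 2 of its 6 genes had a higher mean in withdrawn mice. Gjb6, called by DESeq2, averaged 9.01 and 186 CPM, while Aqp4, Aldh1l1, Gfap and Slc1a3 had lower means in withdrawn mice. The summed endothelial list had medians of 277 and 55.7 CPM, with 2 of 6 genes higher in mean in withdrawn mice. The ranges of both lists overlapped between the groups, and the part of these markers in the protocadherin values was not tested. The source names of 3 withdrawn mice (replicates 3, 4 and 5) read control, against their titles and treatments. The design text of the series counts 5 control and 6 ethanol animals, where titles and treatments give 6 and 5, which were used here. Some values without the 3 mice are given below. Of the withdrawn group they rest on withdrawn 1 and withdrawn 2 alone.

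How much of each gene could be counted differed between the clusters. A read on exon shared by several genes is tallied as ambiguous and credited to none, and between 2.07% and 4.13% of tallied reads per library were ambiguous over all genes. In the alpha cluster between 2860 and 6267 exon bases per gene overlapped another annotated gene, the constant exons among them, and in the gamma cluster between 2116 and 4732. In the beta cluster the overlap ran from 0 to 1927 bases. Levels are therefore given per kb of exon that no other gene shares on either strand, which comes to at most 3028 bases in an alpha gene, 4614 in a gamma gene and 8695 in a beta gene.

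Of the 58 genes, 4 had few reads or none. Pcdhga10, a gamma A gene, kept 0 own bases, with its variable exon covered by an antisense gene (Gm26672), and had 0 reads in all 11 mice. The value 0 thus says nothing about its expression. Pcdha4 kept 404 own bases and had at most 11 reads in a mouse. The symbol Pcdha11 is carried by a pair of gene IDs: ENSMUSG00000007440, which starts where RefSeq places Pcdha10 on the same assembly, and ENSMUSG00000102206, which starts where RefSeq places Pcdha11. The latter kept 1268 own bases and had at most 13 reads. Pcdhb1 kept all of its 2588 exon bases and was read in 3 mice at 1 to 5 counts. These 4 genes fell under the filter on low counts, and the remaining 54 genes (12 alpha, 21 beta and 21 gamma) were tested.

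The variable exons also resemble each other. Of all runs of 75 bases, the read length, in the first exon of an alpha gene, a median of 9.11% also occurred in the transcripts of a gene lying elsewhere, and the share reached 18.2% in Pcdha6. The median was 0.902% for beta genes and 0 for gamma genes, with at most 4.05% (Pcdhb12) and 13.3% (Pcdhgb1). A read from such a stretch cannot be placed on a single gene. The share passed 5% in 16 of the 58 genes and was 0 in 17.

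**Figure D1:**
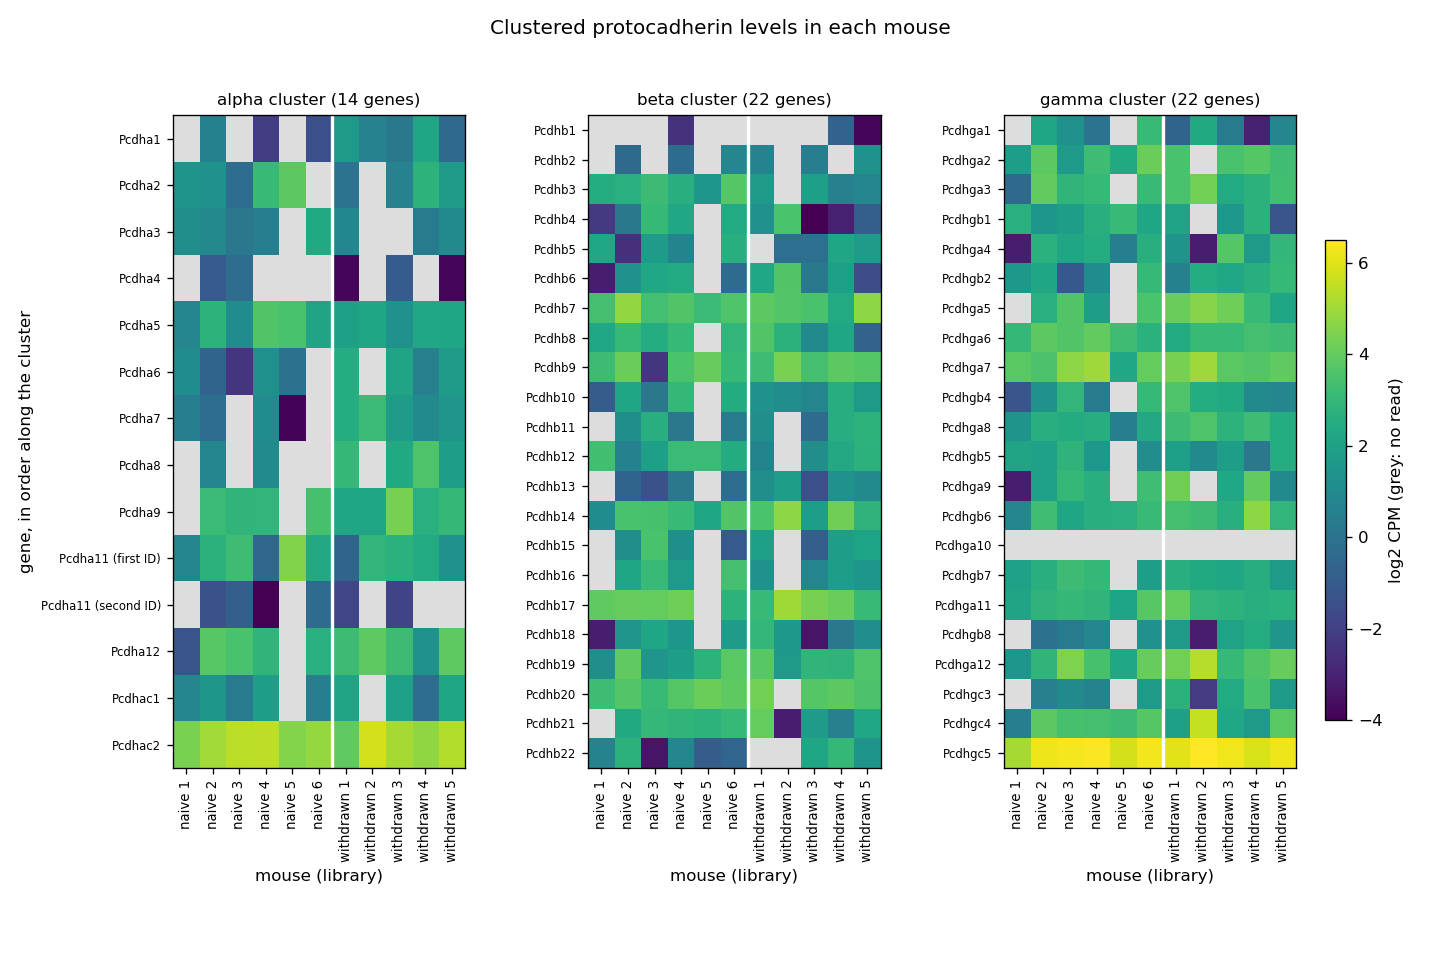
Level of each of the 58 clustered protocadherin genes (rows, in order along each cluster) in each of the 11 mice (columns), as log2 CPM by colour; grey marks no read and the white line parts naïve from withdrawn mice. Pcdhac2 and Pcdhgc5, the last gene of their clusters, are bright in every mouse, while naïve 1, naïve 5 and withdrawn 2 have the most grey cells, at 17, 32 and 20 genes.

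Pcdhgc5, the last gene of the gamma cluster, had the highest level of all members. It reached 15.6 CPM per kb over the 11 mice and ranked highest of the members in 10 of them. In CPM of the whole gene, naïve mice ran from 33.7 through a median of 77.6 to 86.3, and withdrawn mice 1 to 5 had 65.1, 97.8, 78.5, 59.0 and 74.5. Naïve 1 was the low animal and withdrawn 2 the high one, and the groups overlapped. The fold change on the log2 scale, withdrawn over naïve as everywhere below, was 0.12 ± 0.24 (SE; adjusted p = 0.961, edgeR).

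Pcdhac2, the last gene of the alpha cluster and known for the spacing of serotonergic axons, came second at 10.9 CPM per kb. Naïve mice ran from 21.2 through 31.1 to 43.6 CPM and withdrawn mice had 15.4, 54.6, 33.6, 26.7 and 38.6 CPM. The lowest and the highest of the 11 values both belonged to withdrawn mice, replicates 1 and 2, and the fold change was 0.07 ± 0.32 (adjusted p = 0.984). Per kb, Pcdhgc5 lay above Pcdhac2 in 11 of 11 mice, and Pcdhac2 led the alpha cluster in 10 of 11. Both genes had reads in every mouse, including naïve 5, which lacked reads of 32 members.

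Pcdhgc4, known for its part in neuronal survival, was read in all mice but less evenly. Naïve mice ran from 1.40 through 10.7 to 14.4 CPM, and withdrawn mice had 3.89, 47.2, 4.81, 3.20 and 14.0 CPM. Withdrawn 2 stood at more than any other mouse, and the mean of the withdrawn group, 14.6 ± 18.7 CPM, rests on it. The fold change of 0.55 ± 0.73 (adjusted p = 0.933) became -0.62 without that animal.

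Pcdhac1 and Pcdhgc3, the other C-type genes, were low and were at 0 in 2 mice each. Pcdhac1 averaged 1.83 ± 1.28 CPM in naïve and 2.79 ± 2.19 CPM in withdrawn mice, and naïve 5 and withdrawn 2 had no read. Pcdhgc3, which is known to act on dendrite branching, ran from 0 through 1.56 to 3.21 CPM in naïve mice and had 6.70, 0.224, 5.42, 11.1 and 3.18 CPM in withdrawn mice. Of the 5 withdrawn values 3 lay above the naïve range, withdrawn 5 lay just under its top, withdrawn 2 lay near its bottom, and the groups overlapped. Its fold change, 1.92 ± 1.16, was the largest of the C-type genes and did not pass the test (adjusted p = 0.805).

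The C-type genes together made up between 30.5% and 48.7% of the CPM of the alpha and gamma clusters in a mouse. Pcdhgc5 alone made up 26.1% to 51.1% of the reads of the gamma cluster, and Pcdhac2 24.0% to 59.9% of those of the alpha cluster. These shares are not scaled to the length of own exon, so a gene with more own bases counts for more. The C-type genes as a class were thus not alike, with means from 0.885 CPM per kb (Pcdhac1) to 15.6 (Pcdhgc5). Pcdhac2, Pcdhgc4 and Pcdhgc5, the C-type genes whose promoters are known to lack the sequence element shared by the other clustered promoters, were those read in every mouse, while Pcdhb1, which also lacks it, had the lowest level of all measured members at 0.0302 CPM per kb.

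**Figure D2:**
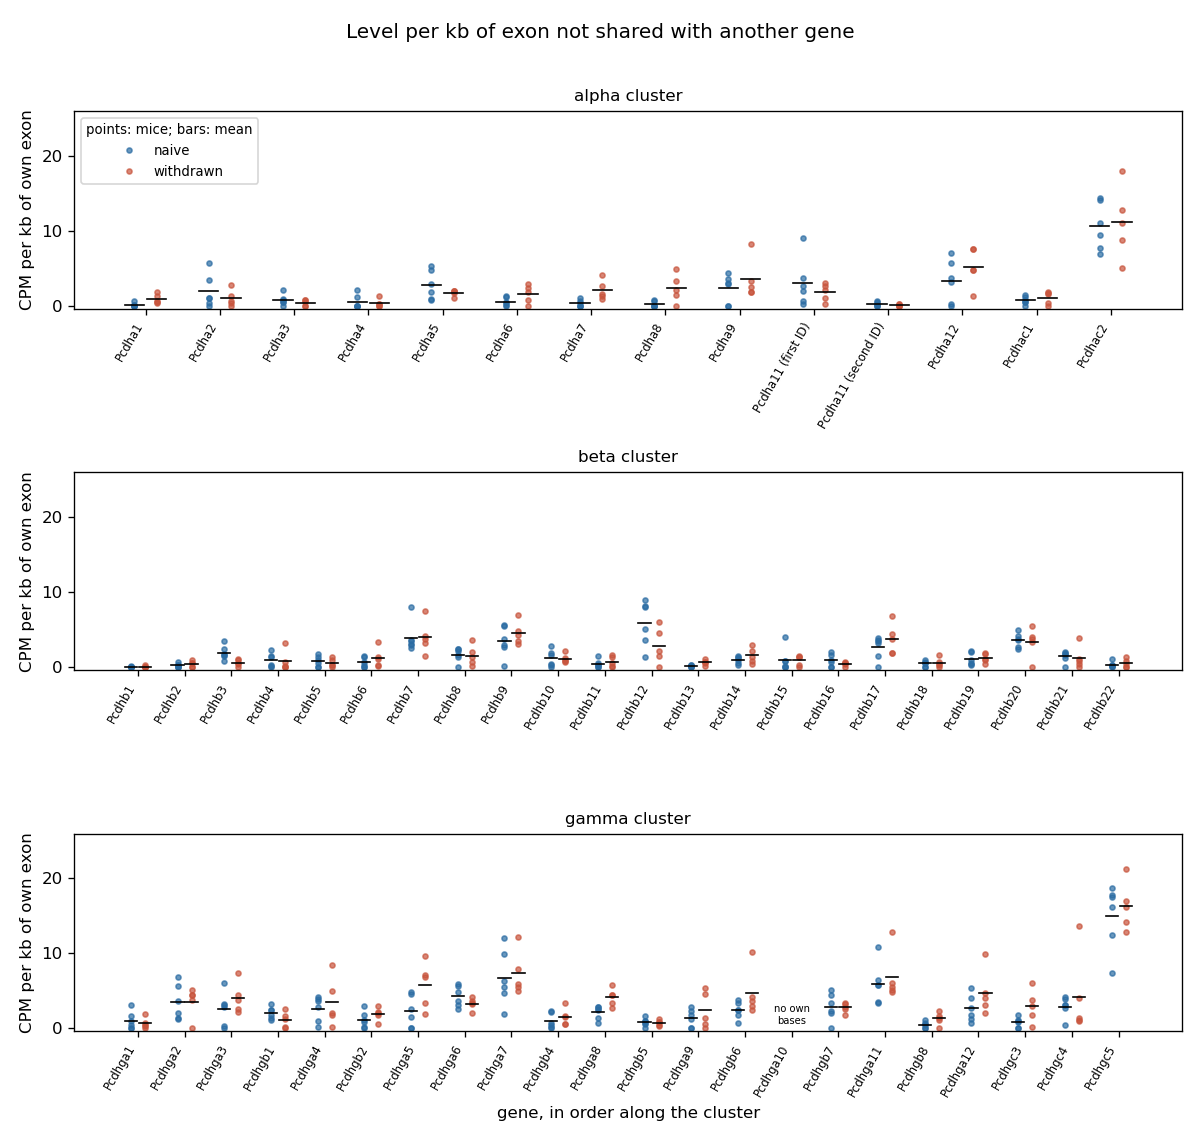
Level per kb of exon shared with no other gene (y axis, CPM per kb) for each gene in order along its cluster (x axis); points are mice, blue naïve and red withdrawn, and bars are group means. Pcdhgc5 (15.6 over all mice) and Pcdhac2 (10.9) stand over the rest, of which the highest is Pcdhga7 (6.99); Pcdhga10 has no own bases.

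Among the 12 alpha isoforms other than the C-type genes, the median level was 1.18 CPM per kb. The highest were Pcdha12 at 4.20, Pcdha9 at 2.88 and the ENSMUSG00000007440 gene at 2.50, and the lowest was the ENSMUSG00000102206 gene at 0.170. The ENSMUSG00000007440 gene had 22.6 CPM in naïve 5, where it made up 45.8% of the reads of isoforms other than C-type, and between 0.648 and 9.37 CPM in the other mice. Pcdha9 had no read in naïve 1 and naïve 5, 10.9 CPM in naïve 6 and 20.5 CPM in withdrawn 3. Per kb, 6 different isoforms led the 12 in 1 or more of the 11 mice.

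Pcdha7 and Pcdha1 had the smallest p-values of the alpha cluster. Pcdha7 ran from 0 through 0.473 to 2.10 CPM in naïve mice and had 5.62, 8.95, 3.41, 1.97 and 2.76 CPM in withdrawn mice. Only withdrawn 4 lay under the highest naïve value, and the fold change was 2.60 ± 1.15 (adjusted p = 0.655, edgeR). Pcdha1 ran from 0 through 0.116 to 1.54 CPM in naïve mice, 3 of which had no read, and had 3.24, 1.57, 1.17, 4.55 and 0.778 CPM in withdrawn mice. Its fold change was 2.59 ± 1.20 (adjusted p = 0.692). Pcdha8, named here after its values were seen, had the largest fold change of all members, 3.16 ± 1.53 (adjusted p = 0.707), with no read in 4 of 6 naïve mice and in withdrawn 2. The naïve values of these genes rest on few reads, a median of 2 per mouse for Pcdha1 and at most 36 for Pcdha7.

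Of the 12 alpha genes tested, 8 had a positive and 4 a negative fold change, and those with a negative one (Pcdha2, Pcdha3, Pcdha5 and the ENSMUSG00000007440 gene) ran from -0.96 to -0.66 with adjusted p-values from 0.892 to 0.934.

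The 22 beta genes are single-exon genes whose promoters are chosen like those of the alpha and gamma isoforms. Their median was 1.03 CPM per kb, with Pcdhb12 (4.47), Pcdhb7 (3.96) and Pcdhb9 (3.91) highest and Pcdhb1 lowest. The level of Pcdhb12 depends on its length: per kb of exon free of overlap on its own strand alone it ranked 24 among the members instead of 5, since only 1107 of its bases are free on both strands. Only 4 beta genes, Pcdhb7, Pcdhb9, Pcdhb14 and Pcdhb19, had reads in all 11 mice. Pcdhb17 shows how far mice could differ: naïve 5 had 0 reads, while at the depth of that library the median of the other 10 mice would have given 260 reads and the lowest of them 106. Pcdhb20 was likewise at 0 in withdrawn 2, where the median of the others would have given 112 reads.

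Pcdhb3 and Pcdhb13 had the smallest p-values of the beta cluster, with fold changes of opposite sign. Pcdhb3 ran from 2.84 through 6.18 to 13.2 CPM in naïve mice and had 3.24, 0, 3.92, 1.48 and 1.84 CPM in withdrawn mice. Every withdrawn value lay under the naïve median, and naïve 5 alone kept the groups overlapping. The fold change was -1.77 ± 0.84 (adjusted p = 0.705, edgeR). DESeq2 gave the gene an adjusted p of 0.213, the smallest of all members by that tool. Pcdhb13 ran from 0 through 0.517 to 1.11 CPM in naïve mice and had 2.30, 3.69, 0.374, 2.58 and 2.05 CPM in withdrawn mice, with a fold change of 2.09 ± 1.06 (adjusted p = 0.731). Of the 21 beta genes tested, 11 had a positive and 10 a negative fold change, with a median of 0.03.

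The 19 gamma genes other than the C-type ones fall into the A and B families, which alternate along the cluster. The 11 gamma A genes with own bases had a median of 3.49 CPM per kb, led by Pcdhga7 (6.99), Pcdhga11 (6.35) and Pcdhga5 (3.82), with Pcdhga1 lowest at 0.834. The 7 gamma B genes had a median of 1.48 CPM per kb, led by Pcdhgb6 (3.42), Pcdhgb7 (2.80) and Pcdhgb1 (1.59), with Pcdhgb5 lowest at 0.731. Pcdhga7 was read in all mice, from 4.74 through 15.1 to 30.9 CPM in naïve mice and at 20.3, 31.2, 14.2, 12.8 and 15.1 CPM in withdrawn mice, with a fold change of 0.12 ± 0.44 (adjusted p = 0.979). The place of Pcdhga11 depends on its length as that of Pcdhb12 does, falling from rank 4 to rank 16 when overlaps on the opposite strand are ignored.

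Pcdhga8 and Pcdhgb6 had the smallest p-values of the gamma cluster. Pcdhga8 ran from 1.42 through 5.25 to 5.93 CPM in naïve mice and had 9.08, 12.1, 6.96, 9.34 and 5.66 CPM in withdrawn mice. Only withdrawn 5 lay inside the naïve range, and the fold change was 0.97 ± 0.51 (adjusted p = 0.760, edgeR). Pcdhgb6 ran from 1.83 through 6.26 to 9.66 CPM in naïve mice and had 10.6, 9.29, 6.12, 25.9 and 7.50 CPM in withdrawn mice. Withdrawn 4 set most of that difference, and the fold change of 0.94 ± 0.53 (adjusted p = 0.780) fell to 0.44 without it. Pcdhga5 had a larger fold change, 1.36, with an SE of 1.06 and with no read in naïve 1 and naïve 5.

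Among the isoforms other than C-type, the position of a gene said little about its level in the beta and gamma clusters. The rank correlation of level per kb with order along the cluster was 0.41 over 12 alpha, 0.16 over 22 beta and 0.06 over 18 gamma genes. The alpha value includes Pcdha4 and the ENSMUSG00000102206 gene, which had few own bases and few reads, and was not computed without them. Of the other alpha isoforms the first, Pcdha1, had 0.491 CPM per kb and the last, Pcdha12, 4.20, with an uneven rise between. The genes share libraries and, in the alpha and gamma clusters, constant exons, and the correlations are given as a description.

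**Figure D3:**
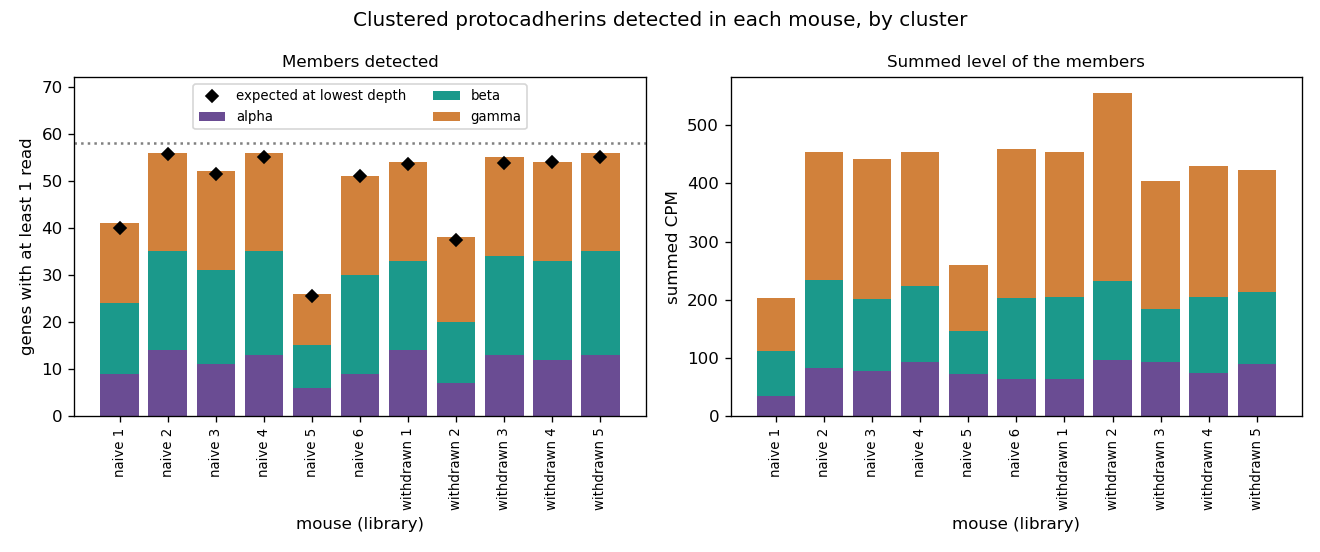
Left, number of the 58 genes (dotted line) with at least 1 read in each mouse, stacked by cluster, with diamonds for the number expected after thinning each library to 7351567 counts. Right, summed CPM of the members by cluster; naïve 1 and naïve 5 have the lowest sums, 203 and 259 CPM, and withdrawn 2 the highest, 555 CPM.

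The number of protocadherins a library held differed widely within both groups. Naïve mice 1 to 6 had reads of 41, 56, 52, 56, 26 and 51 of the 58 genes, and withdrawn mice 1 to 5 of 54, 38, 55, 54 and 56. Naïve 1, naïve 5 and withdrawn 2 stood apart, and 69 of the 99 zeros came from these 3 mice. Depth did not order the mice in this way: thinned to the depth of withdrawn 4, the shallowest library, naïve 5 would still have shown 25.5 genes and withdrawn 2 37.5, against 54.0 in withdrawn 4 itself. Withdrawn 4 also had the most genes of any kind with a read, 31830, and the largest share of reads outside genes, 48.1%. At that depth naïve 1 would have shown 39.9 genes, and the remaining mice between 51.0 (naïve 6) and 55.8 (naïve 2). A count of 0 allows up to 3 counts, or 0.135 to 0.408 CPM depending on the library, by counting error alone. For 34 of the 99 zeros the median of the other mice would have given at least 30 reads at that depth.

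Naïve 5 also had the fewest genes of any kind with a read, 15585, and the smallest share of reads outside genes, 5.77%. Naïve 1 and withdrawn 2 did not stand apart in that way, with 22981 and 23659 genes against 22551 in withdrawn 3, a library with 55 members. The part of these values in the number of members read was not tested.

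When the isoforms other than C-type were weighted by their share of reads, the effective number of beta and of gamma genes (the exponential of the Shannon entropy) was lowest in the same mice. For gamma isoforms it was 10.0 in naïve 1, 7.85 in naïve 5 and 9.64 in withdrawn 2, and between 13.1 and 15.7 in the other 8 mice. For beta genes it was 9.64, 7.13 and 8.37 in those 3 mice and between 11.7 and 16.1 in the others. Single genes, Pcdhb20 in naïve 5 and Pcdhb17 in withdrawn 2, gave 23.9% and 23.4% of the beta reads. Such a share was not particular to those mice: the leading beta gene gave 22.1% in withdrawn 3 and 20.9% in withdrawn 5, against 19.9% in naïve 1. For alpha isoforms the order was another: naïve 5 was lowest at 3.13 and withdrawn 2 next at 5.00, but naïve 1, at 6.41, lay above naïve 3 and naïve 6 (5.08 and 5.31).

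**Figure D4:**
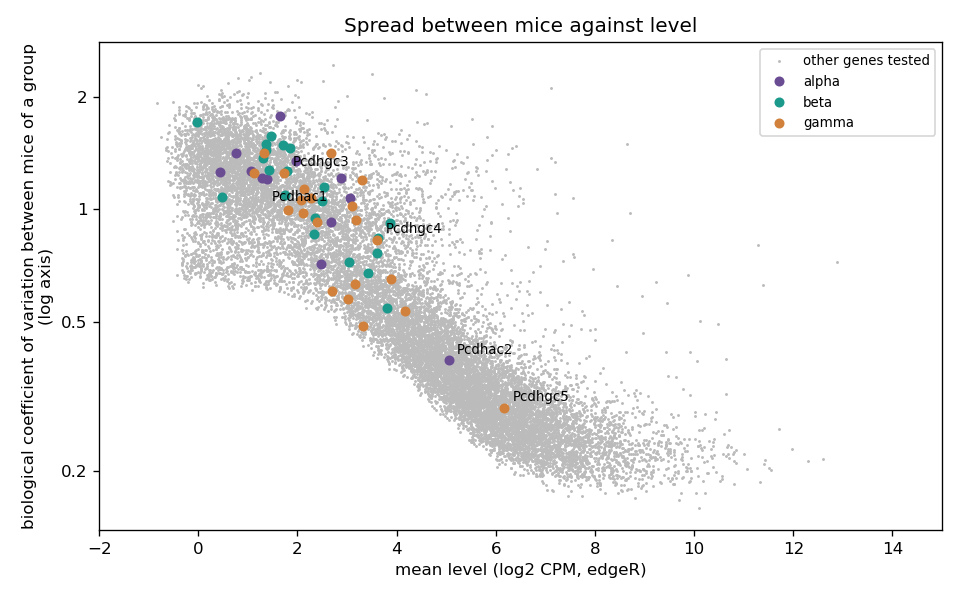
Spread between mice of a group (y axis, biological coefficient of variation from edgeR, log axis) against mean level (x axis, log2 CPM) for all 17093 genes tested, in grey, and the 54 clustered protocadherins tested, in colour by cluster. Pcdhgc5 and Pcdhac2 lie low, at 0.296 and 0.395, and the median of the members is 1.07 against 0.529 for all genes tested.

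The spread between mice was larger for the clustered protocadherins than for most genes. The biological coefficient of variation, the relative SD between mice of a group beyond counting error, had a median of 1.07 over the 54 members tested and of 0.529 over all 17093 genes tested. Spread falls with level, and the members are low (median 4.91 against 18.2 CPM), but relative to the trend at their own level the members' dispersion was still a median of 1.14 times the trend, against 0.803 times for all genes tested. Such a value was not particular to the members. Among the cell type marker lists, glutamatergic neurons lay at 1.09 times the trend and the others higher, from 1.59 (oligodendrocyte precursors) to 9.94 (endothelial cells). By kind, the median coefficient was 1.24 for alpha isoforms, 1.09 for beta genes, 0.938 for gamma A, 0.998 for gamma B and 0.830 for C-type genes. Relative to the trend the median dispersion was 1.22, 1.31, 1.14, 0.898 and 1.07 times in the same order. On that scale the C-type genes were not the lowest, nor the alpha isoforms the highest. The 11 tested protocadherins outside the clusters, which are adhesion genes each with a promoter of its own and lie elsewhere, had a median of 0.361 at a median level of 43.3 CPM. Their dispersion was a median of 0.901 times the trend at their level, a smaller contrast with the members' 1.14 than the coefficients give. These medians are descriptions, and no test was made between the classes.

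This spread sets what the comparison of withdrawn with naïve mice, which asks whether weeks of ethanol vapor and abstinence left the protocadherin repertoire of these neurons at another level, could show. Calls required both an adjusted p no greater than 0.05 and a change past 0.6 on the log2 scale in either direction. By edgeR 0 of the 54 members tested were called, where 1 of all 17093 genes was (0.00585%). By DESeq2 0 members were called, where 362 of 21849 genes were (1.66%). At an unadjusted p under 0.05 edgeR gave 2 members, Pcdha7 and Pcdha1, both higher in withdrawn mice, where it gave 7.22% of all genes tested. DESeq2 gave 7 of the 57 members with a read (Pcdha1, Pcdha7, Pcdha8, Pcdhb3, Pcdhb13, Pcdhga8 and Pcdhgb6), where it gave 6.24% of 40831 genes. The groups did not overlap in 0 of the 54 members and in 0.948% of all genes tested. The median SE of a member's fold change was 1.16 for alpha isoforms, 1.05 for beta genes, 0.850 for gamma A, 0.927 for gamma B and 0.731 for C-type genes on the log2 scale.

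**Figure D5:**
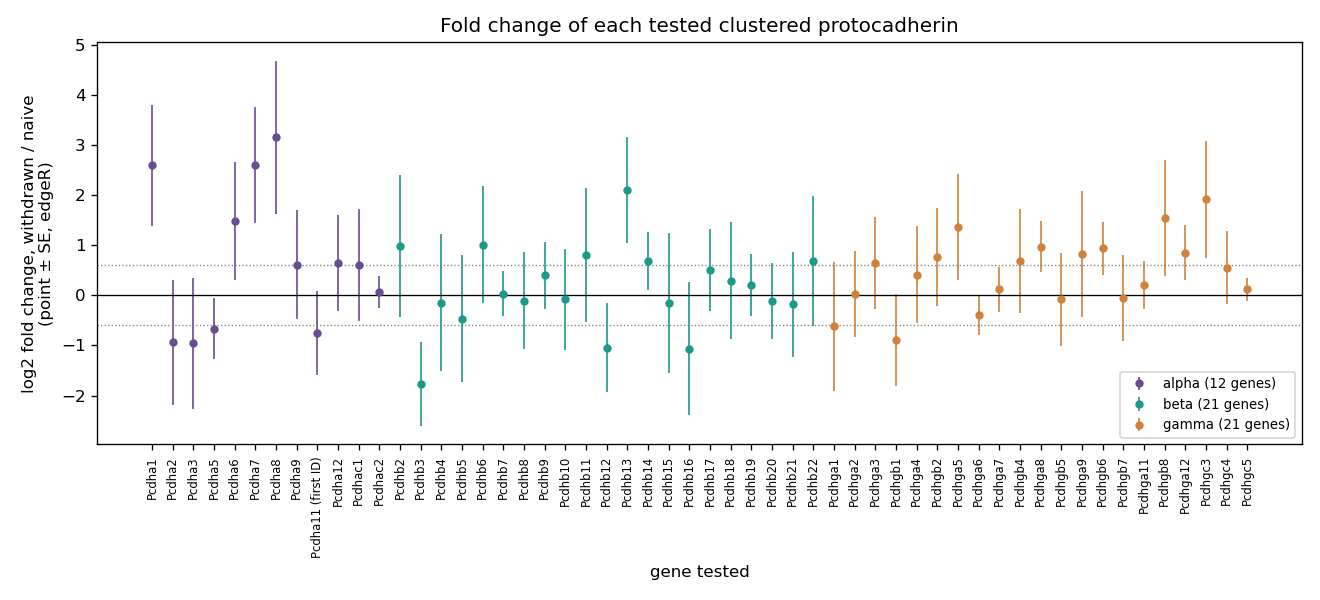
log2 fold change, withdrawn over naïve (y axis, point ± SE from edgeR), for the 54 genes tested (x axis, in order along the clusters, coloured by cluster); dotted lines mark 0.6 either way. Pcdha8 (3.16), Pcdha7 (2.60) and Pcdha1 (2.59) lie highest and Pcdhb3 (-1.77) lowest, with Pcdhgc5 and Pcdhac2 near 0 with the shortest bars; none passed the test.

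By cluster the fold changes leaned differently. Of the alpha genes 8 were positive and 4 negative (median 0.61), of the beta genes 11 and 10 (median 0.03), and of the gamma genes 16 and 5 (median 0.55), against 8852 and 8241 of all genes tested (median 0.02). Over the 54 members that made 35 positive and 19 negative. The same counts were taken without naïve 1, naïve 5 and withdrawn 2, the mice with the most members at 0. This choice was made after seeing the data and on these same genes, and since it takes out the 2 naïve mice with the lowest gamma sums it lowers the ratio of withdrawn to naïve by construction. Without them gamma genes were 10 positive and 11 negative (median -0.003), beta genes 7 and 14 (median -0.13) and alpha genes 7 and 5 (median 0.13), and 0 members were called. Without the 3 withdrawn mice whose source names read control, the gamma genes were 15 positive and 6 negative (median 0.63). The alpha genes were then 7 and 5 (median 0.15) and the beta genes 11 and 10 (median 0.13). An unadjusted p under 0.05 by edgeR was then found in 0 alpha, 1 beta and 0 gamma genes. The smallest p-values of the beta cluster were those of Pcdhb22 and Pcdhb12.

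The levels were also summed over the genes of each cluster. Alpha sums were 35.3, 82.8, 77.5, 92.1, 72.7 and 63.1 CPM in naïve mice 1 to 6 and 64.1, 96.8, 93.2, 74.8 and 89.1 CPM in withdrawn mice 1 to 5. Beta sums ran from 74.0 to 151 CPM in naïve and from 91.6 to 141 CPM in withdrawn mice. Gamma sums were 91.8, 220, 240, 231, 112 and 255 CPM in naïve mice 1 to 6 and 249, 322, 219, 225 and 210 CPM in withdrawn mice 1 to 5. In all 3 clusters naïve 1 lay at or near the bottom, and for beta and gamma naïve 5 did too, while the other 4 naïve mice lay within or beside the withdrawn range. The log2 ratio of the group means was 0.25 for alpha, 0.11 for beta and 0.37 for gamma, and without the 3 mice chosen for their members at 0, with the same limit, it was 0.03, -0.17 and -0.07.

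Genes that act on the clusters were tested in the same fit. Of 27 regulators of protocadherin promoters, 27 were tested, 18 with a positive and 9 with a negative fold change (median 0.10), and 0 were called by edgeR or DESeq2. Dnmt3a, a de novo DNA methyltransferase, ran from 52.4 through 61.1 to 84.2 CPM in naïve mice and from 41.5 through 45.9 to 52.9 CPM in withdrawn mice, and the groups overlapped only where the lowest naïve met the highest withdrawn mouse. Its fold change was -0.46 ± 0.18 (adjusted p = 0.547, edgeR). Smchd1, a silencer of the inactive X chromosome that also represses clustered protocadherins, ran from 7.99 through 25.4 to 44.0 CPM in naïve and from 29.4 through 41.6 to 64.5 CPM in withdrawn mice, with a fold change of 0.77 ± 0.35 (adjusted p = 0.678).

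Of 28 partners and effectors of protocadherin proteins, 28 were tested, 12 with a positive and 16 with a negative fold change (median -0.04), and 0 were called by edgeR. Prkcd, a protein kinase C isoform, ran from 0 through 0.676 to 6.26 CPM in naïve mice, 2 of which had no read, and from 2.13 through 26.0 to 56.2 CPM in withdrawn mice. Its fold change was 4.09 ± 1.17 (adjusted p = 0.290, edgeR), and DESeq2 alone called it (adjusted p = 0.0201). Fyn, a kinase bound by alpha protocadherins, averaged 168 ± 27.0 CPM in naïve and 125 ± 13.5 CPM in withdrawn mice, with a fold change of -0.43 ± 0.15 (adjusted p = 0.461).

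Of 12 protocadherins outside the clusters 11 were tested, 8 with a positive and 3 with a negative fold change (median 0.04), and 0 of these were called by either tool or had an unadjusted p under 0.05 by edgeR. Pcdh12, under the low-count filter with at most 17 reads in a naïve and 1 in a withdrawn mouse, had the largest fold change of the list by DESeq2, -4.31 ± 1.51 (adjusted p = 0.139). Of the 11, Pcdh18 and Pcdh15 had the smallest p-values, with fold changes of 0.80 ± 0.52 (adjusted p = 0.819) and 0.36 ± 0.24 (adjusted p = 0.825). Pcdh18 stood at 61.1 CPM in withdrawn 2, and its fold change fell to 0.06 without that animal.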

How the data were processed

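Sorted GFP-positive mPFC neurons of 11 mice were measured by single-end RNA-seq of 75 nt on SMARTseq HT libraries made from 160 pg RNA, a kit that does not mark strand. The authors trimmed reads with cutadapt 1.18, mapped them to GRCm38 (Ensembl revision 91) with STAR 2.5.2a and counted genes with HTSeq 0.11.0; the deposited values are raw counts per gene, one file per mouse. Rows that name no gene were left out of totals and tests; reads outside genes made up 5.77% to 48.1% of tallied reads, ambiguous reads 2.07% to 4.13% and multiply mapped reads 7.88% to 12.6%. The gene totals gave 7351567 to 22244869 counts per mouse. Whether strand was used in counting is not given in the sources used here; of 149 genes with no own exon base on either strand but at least 500 on their own strand, 142 (95.3%) had no read in any mouse, against 11.0% of 37968 genes with at least 500 own bases, so own bases were taken over both strands.

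Genes were annotated from GENCODE vM21 on the same assembly. edgeR 4.0.16 (R 4.3.3) was fitted to the counts of all 6 naïve and 5 withdrawn mice, grouped by title and treatment, with TMM, filterByExpr by group, the quasi-likelihood test and Benjamini-Hochberg adjustment over 17093 genes; CPM use TMM library sizes, and SE is the fold change over the root of F. DESeq2 1.42.0, other scalings, no low-count filter, robust dispersions, a replicate block, the fold threshold left off, and subsets of mice were alternatives. The fit was tested on simulated data. Floors cover counting error only, while each SD and SE includes the spread between mice. Named genes were the C-type genes, in each of alpha, beta, gamma A and gamma B the 3 highest and the lowest per kb (of genes with own bases), the 2 smallest p-values per cluster and pathway list, any called or non-overlapping gene, and Crhr1, Slc17a7 and Gad2. The rule for the members uses symbols only, but this gene family and the lists were picked with earlier results of these data known. Each library came from its own mouse, and no 2 libraries of a group had counts alike within sampling noise.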

Additional observations from a re-analysis of the deposited data

Results flagged for a closer look

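Of 78 sets of group values examined, 10 held an animal flagged by Dixon's 95% limit. That limit sets the gap of an animal to its nearest neighbour against the range of its group. Chance flags about 1 in 20 only where values are normally distributed. That was not checked, and CPM of low genes with many values at 0, such as Pcdhb1, are not so distributed. In the withdrawn group, replicate 2 had reads of 38 members, with the next mouse at 54, and stood high for Pcdhgc4 at 47.2 CPM (next 14.0) and for Pcdh18 at 61.1 CPM (next 24.0). Withdrawn 3 stood high for Pcdha9 at 20.5 CPM (next 8.06), withdrawn 1 for Pcdhga11 at 16.1 CPM (next 7.61), and withdrawn 4 for Pcdhgb6 at 25.9 CPM (next 10.6) and for Pcdhb1 at 0.615 CPM (next 0.0707), which is 5 reads. In the naïve group, replicate 2 stood high for Pcdhb7 at 27.8 CPM (next 12.6) and for Pcdha1 at 1.54 CPM (next 0.370), and replicate 4 was the only one with reads of Pcdhb1, at 0.175 CPM. These flags fall in 6 different mice.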

How the results depend on the processing

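The count of 0 called members held in the alpha, beta and gamma clusters under all 20 alternatives. The number of genes called among all genes, 1, became 362 by DESeq2, 137 without the low-count filter, 0 with the replicate block, 0 without the 3 mice with conflicting labels and 249 without the 3 mice that lacked many members (added after seeing the data), and between 0 and 193 when mice were left out in turn, 193 without withdrawn replicate 2; the cause was not tested.
Among the 67 pathway genes, 1 (Prkcd) was called by DESeq2 against 0, and 0 were called whichever mouse was left out; the members of each cluster likewise had 0 calls with any mouse left out. No log2 ratio of a cluster sum moved by more than the pooled SD of single mice, a limit that a change of sign can stay within. The beta and gamma ratios did change sign without the 3 mice that lacked many members. With each mouse left out the log2 ratios ran from 0.11 to 0.34 (alpha), 0.0058 to 0.19 (beta) and 0.22 to 0.46 (gamma).

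Of 627 fold changes of 33 named genes under an alternative, 580 kept their direction and side of the threshold, 1 (Prkcd by DESeq2) passed the threshold, and 46, of 14 genes not called, changed sign. With library totals alone Crhr1 had 0.010 and Pcdhgb7 0.018. Without the 3 mice with conflicting labels Crhr1 had 0.29, Pcdha9 -0.38, Pcdhb7 -0.052 and Pcdhgb7 0.087. Without the 3 mice that lacked many members Gad2 had -0.16, Pcdha12 -0.084, Pcdhac2 -0.37, Pcdhb7 -0.13, Pcdhga11 -0.023, Pcdhga7 -0.43, Pcdhgc4 -0.91 and Pcdhgc5 -0.22. With a mouse left out, the fold changes that crossed 0 ran from -0.26 to 0.12 (Crhr1), -0.024 to 0.81 (Gad2), -0.20 to 0.089 (Slc17a7), -0.17 to 0.24 (Pcdhac2), -0.33 to 0.36 (Pcdhb7), -1.50 to 0.17 (Pcdhga1), -0.15 to 0.47 (Pcdhga11), -0.15 to 0.37 (Pcdhga7), -0.39 to 0.26 (Pcdhgb5), -0.31 to 0.20 (Pcdhgb7), -0.62 to 0.82 (Pcdhgc4) and -0.016 to 0.20 (Pcdhgc5).

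The replicate numbers name mice and pair none: deviations of same-numbered mice correlated between -0.14 and 0.16 over genes. With the replicate block, over the 5 shared numbers, 0 members and 0 of all genes were called, 16 of 21 beta genes were positive against 11, and the fold change was -0.018 for Pcdhac2, -0.050 for Pcdhb7, 0.89 for Pcdhga1 and 0.45 for Pcdhgb7. Few reads limit Pcdha4, Pcdhb1 and the ENSMUSG00000102206 gene, with at most 13 in a mouse. Their own bases were 404, 2588 and 1268 in the same order, and Pcdhb1 had no read in withdrawn 3, the deepest library. The cause of the few reads was not tested.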
